A study of Mus musculus with 8 samples.

Results

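In mouse hippocampus 5 genes, Tmcc2, Mtcl1, Fam171a1, Desi1 and Dip2c, each had listed isoforms that differed in opposite directions between Jade2-knockout and wild-type libraries. The sums of their listed isoforms overlapped between the groups, though for Desi1 not once transcript length was taken into account. Length was not taken into account for Mtcl1 and Dip2c, which have listed transcripts of unknown length. The 11 transcripts of the 5 genes were taken from a deposited table of 1679 transcripts at 1404 loci, by gene symbol or by the locus identifier in that table. The 5 genes were selected on the measured abundances of this same contrast, so every difference below is a description without a test. All 8 libraries came from hippocampus of C57BL/6 mice aged 8 weeks. The 4 control libraries were wild type and the other 4 carried a Jade2 knockout, whose construction the labels do not describe. Separate animals are not named in the labels, so the spread given here may be technical.

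Jade2 is a PHD-finger protein that works with histone acetyltransferase complexes. Many genes make several transcripts from 1 locus, by starting at different first exons, by including or skipping internal exons, or by ending at different sites. Such isoforms can encode proteins with different ends, or can carry an early stop codon that marks the RNA for nonsense-mediated decay, the pathway that degrades messages with premature stops. Tmcc2 is a coiled-coil membrane protein of the endoplasmic reticulum known to bind apolipoprotein E. Mtcl1 crosslinks and stabilises microtubules. Fam171a1 is a single-pass membrane protein, Desi1 is a protease that removes the small modifier SUMO from proteins, and Dip2c is a member of the disco-interacting protein family with adenylate-forming domains.

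The table holds only transcripts for which the authors' deposited p was at most 0.0498 and the absolute log2 fold change at least 1.00. It names no unit, and its abundances are given here as FPKM, fragments scaled to transcript length and to the size of the library. No counts were used, so depth is unknown. The median listed abundance per library was 0.773 to 0.900 FPKM. The annotated Jade2 transcript ENSMUST00000109091 was listed at 0 in all 4 knockout libraries and at 1.41 to 5.05 FPKM in the controls. Jade2 had 4 more listed transcripts, all merged models. Of these, 3 had 0.501 to 12.3 FPKM in the knockouts and 0 in every control, and MERGE.3721.8 was at 0 to 0.00225 FPKM in the knockouts and 1.79 to 11.8 FPKM in the controls. Listed Jade2 RNA was thus present in both groups, in different transcripts. Of 29 marker genes of hippocampal neurons and other cell types, 5 were listed, with 1 transcript each, so the table cannot show whether the tissue's markers were present. All 5 had lower means in the knockout, beside 51.5% of all listed transcripts that were lower. The means were 0.434 against 6.66 FPKM for Csf1r of microglia and 1.46 against 2.69 FPKM for Mag of oligodendrocytes. The Csf1r control mean was raised by replicate 1 at 21.3 FPKM, with the other controls at 1.19 to 2.53 FPKM. For the neuronal markers Prox1, Grik4 and Zbtb20, each a single merged model, the means were 6.26 against 14.5, 1.31 against 4.89 and 0.204 against 0.712 FPKM. Singly the groups were apart for Mag alone. Summed over the 5, abundances were 2.24 to 15.6 FPKM in the knockouts and 18.7 to 42.5 FPKM in the controls. Nothing is read from that gap, since all 5 rows were listed for their difference in this contrast. The markers' part in the isoform differences was not tested. The 11 transcripts comprised 5 with higher and 6 with lower knockout values, and 10 of them averaged 1 FPKM or more across all libraries. The 2 groups did not overlap for 10 of the 11, against 36.1% of all listed transcripts, a count fixed in large part by how the genes were chosen. In the authors' deposited table none of the 11 had an adjusted p under 0.05, against 0.893% of listed transcripts, and 2 had one under 0.1, against 1.31%.

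Sequence shows what separates the isoforms that exchanged share at Fam171a1, Tmcc2 and Desi1, and at Mtcl1 what separates the 2 annotated transcripts, since the exons of the third listed transcript are not given. Coordinates are mm10, as deposited, and all 8 Ensembl transcripts had the same coordinates in GENCODE M21 on GRCm38, from which the exon sequences below were read. The paired Fam171a1 isoforms differ in their first exon alone and share 7 of 8 exons. ENSMUST00000115099 starts at position 3118382 of chromosome 2 and ENSMUST00000062934 starts 303 bases downstream. Each begins its reading frame in its own first exon, so the proteins of 892 and 887 codons differ at the amino terminus. The coding part of exon 1 is at chr2:3118556-3118652 (plus strand) in the first and chr2:3118854-3118935 in the second, and is printed 5′ to 3′ with the start codon in capitals.
ENSMUST00000115099: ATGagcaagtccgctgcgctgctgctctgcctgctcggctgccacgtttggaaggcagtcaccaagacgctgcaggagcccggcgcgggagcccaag
ENSMUST00000062934: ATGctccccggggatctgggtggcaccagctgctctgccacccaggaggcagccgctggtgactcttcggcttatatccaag

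Tmcc2 also has alternative first exons, 963 bases apart on the minus strand of chromosome 1. ENSMUST00000045473 encodes 706 codons and begins translation in its first exon, at chr1:132390977-132391183. ENSMUST00000132435 has a noncoding first exon and begins at an ATG inside exon 2, which gives 628 codons and leaves out the amino-terminal part. The coding part of the first exon of ENSMUST00000045473 and the first 90 bases of exon 2 (chr1:132381092-132381181) follow, with each isoform's start codon in capitals.
ENSMUST00000045473: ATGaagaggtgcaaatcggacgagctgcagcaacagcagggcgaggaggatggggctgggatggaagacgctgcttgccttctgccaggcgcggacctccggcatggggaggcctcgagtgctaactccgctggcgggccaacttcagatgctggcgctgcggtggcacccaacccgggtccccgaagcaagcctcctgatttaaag
Tmcc2 exon 2: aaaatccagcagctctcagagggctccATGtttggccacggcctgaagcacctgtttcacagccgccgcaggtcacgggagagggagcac

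The 250 bases upstream of the corresponding RefSeq starts (GRCm38.p6, minus strand) are shown because the paired Tmcc2 isoforms begin at separate start sites. CpG pairs, which read CG on both strands, are in capitals. The window for ENSMUST00000132435 is chr1:132390319-132390568 and ends just before that transcript's first base. The window for ENSMUST00000045473 is chr1:132391387-132391636, and its RefSeq start lies 105 bases from the Ensembl start.
ENSMUST00000132435 upstream: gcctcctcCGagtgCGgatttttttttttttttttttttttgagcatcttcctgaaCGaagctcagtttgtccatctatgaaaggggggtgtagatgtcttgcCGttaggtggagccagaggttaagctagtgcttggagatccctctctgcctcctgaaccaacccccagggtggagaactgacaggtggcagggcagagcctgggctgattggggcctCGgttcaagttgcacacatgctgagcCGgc
ENSMUST00000045473 upstream: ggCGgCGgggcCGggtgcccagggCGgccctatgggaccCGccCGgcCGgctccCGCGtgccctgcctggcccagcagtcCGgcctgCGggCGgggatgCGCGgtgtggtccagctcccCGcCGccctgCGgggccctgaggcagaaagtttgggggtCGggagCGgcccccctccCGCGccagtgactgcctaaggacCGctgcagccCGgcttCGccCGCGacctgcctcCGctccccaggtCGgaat
The window of the isoform that dominated in the controls was 78% G or C with 28 CpG pairs, a number reached by 7.61% of 32851 RefSeq promoter windows of this length. The window of the isoform that dominated in the knockout was 52.8% G or C with 6 CpG pairs, reached by 50.4% of windows. No such contrast was found at Fam171a1, where the windows of ENSMUST00000115099 and ENSMUST00000062934 held 23 and 34 CpG pairs. The annotated starts of that pair lie 303 bases apart, against 963 for the Tmcc2 pair, so the Fam171a1 windows are close together. The windows of Dip2c, Desi1 and Mtcl1 held 24, 25 and 25.

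At Desi1 the isoforms differ in an internal exon and at both ends. ENSMUST00000152227 is the protein-coding transcript of 168 codons. ENSMUST00000135988 is annotated as a nonsense-mediated decay transcript. It includes an added exon that ends the reading frame after 106 codons, and it ends 1324 bases short of its partner. The coding part of that exon with its stop codon in capitals (chr15:81999382-81999412, minus strand) is as follows.
ENSMUST00000135988: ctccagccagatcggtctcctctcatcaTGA
At Mtcl1 the annotated transcripts ENSMUST00000097291 and ENSMUST00000086693 have the same start and share 13 exons. The first includes a 57-base exon with an early stop, so its last codons differ from those of ENSMUST00000086693, and the coding lengths are 1893 and 1945 codons. The coding part of the 57-base exon (chr17:66340502-66340540, minus strand) and the coding part of the other isoform's last exon (chr17:66337960-66338154) are shown with the stop codons in capitals.
ENSMUST00000097291: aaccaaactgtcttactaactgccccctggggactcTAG
ENSMUST00000086693: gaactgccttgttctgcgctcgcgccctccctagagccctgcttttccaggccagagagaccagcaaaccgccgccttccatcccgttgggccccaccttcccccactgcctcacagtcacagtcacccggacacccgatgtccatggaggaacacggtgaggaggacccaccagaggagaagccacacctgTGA

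Most of each pair's sequence is common to both isoforms, so few bases tell them apart, except at Desi1. In the Fam171a1 pair 93.9% of ENSMUST00000062934 is also in its partner, which leaves 251 bases of its own, and ENSMUST00000115099 has 271. ENSMUST00000132435 and ENSMUST00000045473 of Tmcc2 have 417 and 313 bases of their own. In Desi1 ENSMUST00000152227 has 1324 bases of its own, 45.1% of its length and all in the longer 3′ end, and ENSMUST00000135988 has 245. In Mtcl1 ENSMUST00000097291 has 57 bases of its own beside 7217 shared with ENSMUST00000086693, which has 4. The remaining listed transcripts are merged models, with exons not given in the sources used here. Mtcl1 MERGE.11312.4 begins at the same base as both annotated transcripts and ends 13 bases from ENSMUST00000097291. Dip2c MERGE.6379.2 and MERGE.6379.4 lie within 25 bases of both ends of ENSMUST00000174552, an annotated coding transcript of that gene.

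**Figure D1:**
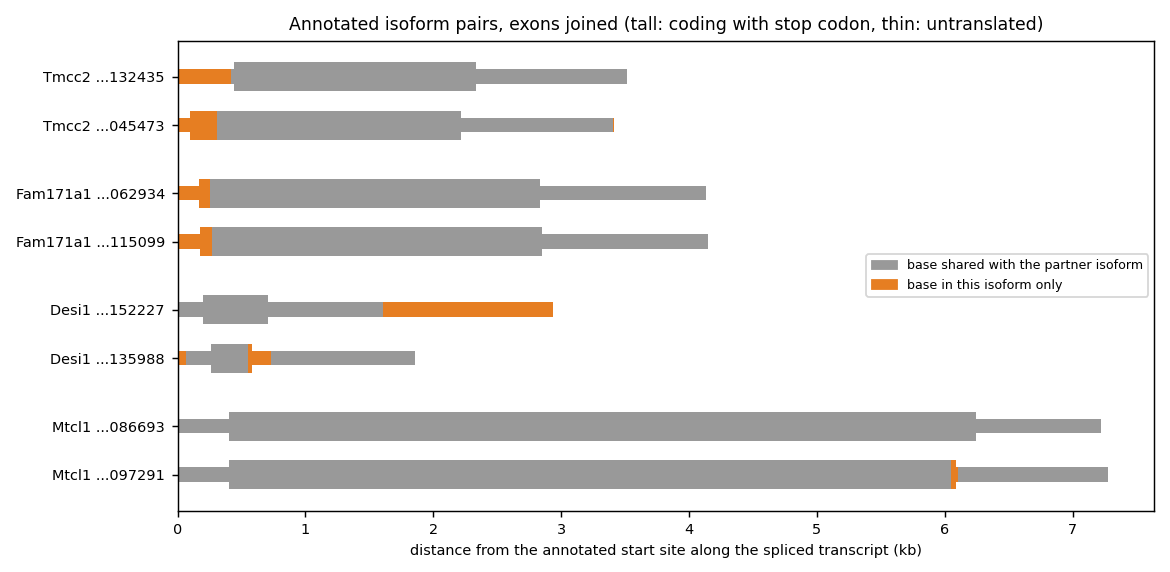
Exons of the annotated isoform pairs joined end to end, with distance from the start site in kilobases; coding sequence with its stop codon is tall, untranslated sequence thin, and bases found in only 1 of the pair are orange. The Tmcc2 and Fam171a1 pairs differ at the start, the Desi1 pair in an internal exon and at both ends, and the Mtcl1 pair by a 57-base exon near the end of the coding sequence.

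Fam171a1 had the largest difference in isoform share of the 5. ENSMUST00000062934 had values of 15.5, 19.2, 8.61 and 12.7 FPKM in the 4 knockout libraries (replicates 1 to 4) and 0.00988, 1.13, 2.68 and 0.00764 FPKM in the 4 controls (same order). ENSMUST00000115099 had the opposite pattern, at 1.54, 1.76, 0.879 and 0.260 FPKM in the knockouts and 21.04, 8.59, 20.8 and 15.1 FPKM in the controls. Neither isoform's groups overlapped. ENSMUST00000062934 made up 92.8% ± 3.47 of the listed sum in the knockout and 5.77% ± 6.61 in the control (SD, n = 4 each), a difference of 87.1 percentage points. The lowest knockout share was 90.7% and the highest control share 11.6%. The listed sum itself was 15.1 ± 4.98 FPKM for knockouts against 17.3 ± 6.17 FPKM for controls (SD, n = 4 each), a ratio of 0.872. Sums ran from 9.49 to 21.01 FPKM in the knockouts and from 9.72 to 23.5 FPKM in the controls, so the ranges nearly coincided. On the log2(FPKM + 0.5) scale ENSMUST00000062934 was 3.70 higher and ENSMUST00000115099 differed by -3.43. In bulk tissue such as this, fewer cells of a type and less RNA per cell cannot be told apart, here and for the genes below.

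Tmcc2 was the most abundant of the 5. ENSMUST00000132435, with the noncoding first exon, had values of 65.2, 40.6, 51.9 and 56.9 FPKM in the 4 knockout libraries (replicates 1 to 4) and 5.84, 2.59, 14.7 and 20.3 FPKM in the 4 controls (same order). ENSMUST00000045473, whose upstream window is the CpG-rich one, stood at 14.4, 12.4, 10.8 and 20.6 FPKM in the knockouts and 65.9, 40.01, 68.3 and 63.8 FPKM in the controls. Control replicate 2 gave the lowest control value of each isoform, and the groups still did not overlap. ENSMUST00000132435 made up 78.7% ± 4.44 of the listed sum in the knockout and 14.01% ± 8.43 in the control (SD, n = 4 each). Its share was at least 73.4% in every knockout and at most 24.1% in every control. The listed sum was 68.1 ± 12.6 FPKM for knockouts against 70.3 ± 19.3 FPKM for controls (SD, n = 4 each), a ratio of 0.969. Unlike Fam171a1, where the minor isoform was nearly absent from control replicates 1 and 4, both Tmcc2 isoforms were at 2.59 FPKM or more in all 8 libraries. An antisense gene, Gm15849, overlaps Tmcc2. In GENCODE M21 a processed pseudogene on the same strand, Gm4705, lies within Mtcl1, and 10 genes overlap Dip2c, 8 of them on its strand, including the lincRNA Gm26601.

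Mtcl1 had 3 listed transcripts. MERGE.11312.4 had values of 7.14, 3.99, 5.94 and 7.91 FPKM in the 4 knockout libraries (replicates 1 to 4) and 1.46, 0.979, 0.823 and 1.24 FPKM in the 4 controls (same order). ENSMUST00000097291, the isoform with the 57-base exon, was at 0.00191, 0.717, 0.00189 and 0 FPKM in the knockouts and 4.97, 2.98, 6.75 and 4.84 FPKM in the controls. Knockout replicate 2 was the only knockout above 0.00191 FPKM. The second annotated isoform, ENSMUST00000086693, was low in both groups, at 0.367, 0.513, 0.313 and 0.146 FPKM in the knockouts and 0.725, 0.460, 0.559 and 0.768 FPKM in the controls. It was the 1 transcript of the 11 whose groups overlapped, and its share of the listed sum was 5.38% ± 3.31 in the knockout and 9.66% ± 1.91 in the control (SD, n = 4 each).

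The model MERGE.11312.4 made up 91.2% ± 9.93 of the Mtcl1 listed sum in the knockout and 17.7% ± 5.31 in the control (SD, n = 4 each). Its knockout shares were 95.1%, 76.4%, 95.0% and 98.2% for replicates 1 to 4, and the highest control share was 22.2%. The share of ENSMUST00000097291 was 3.45% ± 6.86 in the knockout and 72.6% ± 7.03 in the control (SD, n = 4 each). The listed sum was 6.76 ± 1.27 FPKM for knockouts against 6.64 ± 1.58 FPKM for controls (SD, n = 4 each), a ratio of 1.02. In the authors' deposited table the log2 fold change of ENSMUST00000097291 was -9.11, with 3 of the 4 knockout values at 0.00191 FPKM or below. On the log2(FPKM + 0.5) scale the difference was -3.06, and it was -4.81 with a pseudocount of 0.1.

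Desi1 had a higher mean listed sum in the knockout, beside the difference in isoform share. The coding isoform ENSMUST00000152227 had values of 29.7, 21.2, 47.8 and 28.4 FPKM in the 4 knockout libraries (replicates 1 to 4) and 5.58, 17.9, 5.57 and 7.63 FPKM in the 4 controls (same order). The nonsense-mediated decay isoform ENSMUST00000135988 stood at 2.40, 3.39, 1.47 and 3.23 FPKM in the knockouts and 16.5, 7.55, 18.1 and 19.5 FPKM in the controls. Control replicate 2 lay apart from the other controls for both, on the side of the knockouts. The coding isoform was 91.4% ± 4.56 of the listed sum in the knockout and 36.8% ± 22.4 in the control (SD, n = 4 each). Its control shares were 25.3%, 70.3%, 23.5% and 28.2% for replicates 1 to 4, below the lowest knockout share of 86.2%. Without control replicate 2 the difference in share was 65.7 percentage points in place of 54.6.

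The Desi1 listed sum was 34.4 ± 10.5 FPKM for knockouts against 24.6 ± 2.16 FPKM for controls (SD, n = 4 each), a ratio of 1.40. The 4 knockout sums were 32.1, 24.6, 49.3 and 31.7 FPKM, of which 3 were above every control sum, and the groups overlapped only through knockout replicate 2. FPKM divides fragments by transcript length, and ENSMUST00000152227 is 2934 bases long against 1855 for its partner. When each abundance was multiplied by its length, as a stand-in for fragments, the sums were 68.5 to 143 in the knockouts and 47.0 to 66.4 in the controls (FPKM × kilobases). These ranges did not overlap and the ratio of means was 1.77. On that scale the Desi1 total was not steady. The same step gave ratios of 0.987 for Tmcc2 and 0.869 for Fam171a1, whose isoforms are similar in length. Xrcc6, a protein-coding gene on the opposite strand, spans the whole Desi1 locus, with the strand setting of the quantification not given in the sources used here.

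Dip2c was represented by merged models alone. MERGE.6379.4 had values of 5.54, 6.71, 3.08 and 12.3 FPKM in the 4 knockout libraries (replicates 1 to 4) and 1.27, 0.857, 1.49 and 1.20 FPKM in the 4 controls (same order). MERGE.6379.2 stood at 2.52, 1.34, 1.97 and 0.614 FPKM in the knockouts and 10.1, 10.02, 9.22 and 10.04 FPKM in the controls. The controls were tightly grouped for both, while the knockouts spread widely, from 3.08 to 12.3 and from 0.614 to 2.52 FPKM. MERGE.6379.4 made up 77.1% ± 15.3 of the listed sum in the knockout and 10.9% ± 2.49 in the control (SD, n = 4 each), and its knockout shares were 68.7%, 83.3%, 61.0% and 95.3% for replicates 1 to 4. The listed sum was 8.52 ± 3.26 FPKM for knockouts against 11.06 ± 0.313 FPKM for controls (SD, n = 4 each), a ratio of 0.771. Of the 4 knockout sums 3 were below every control sum, and replicate 4, at 12.9 FPKM, was above every control. The groups overlapped for Dip2c only through knockout replicate 4.

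**Figure D2:**
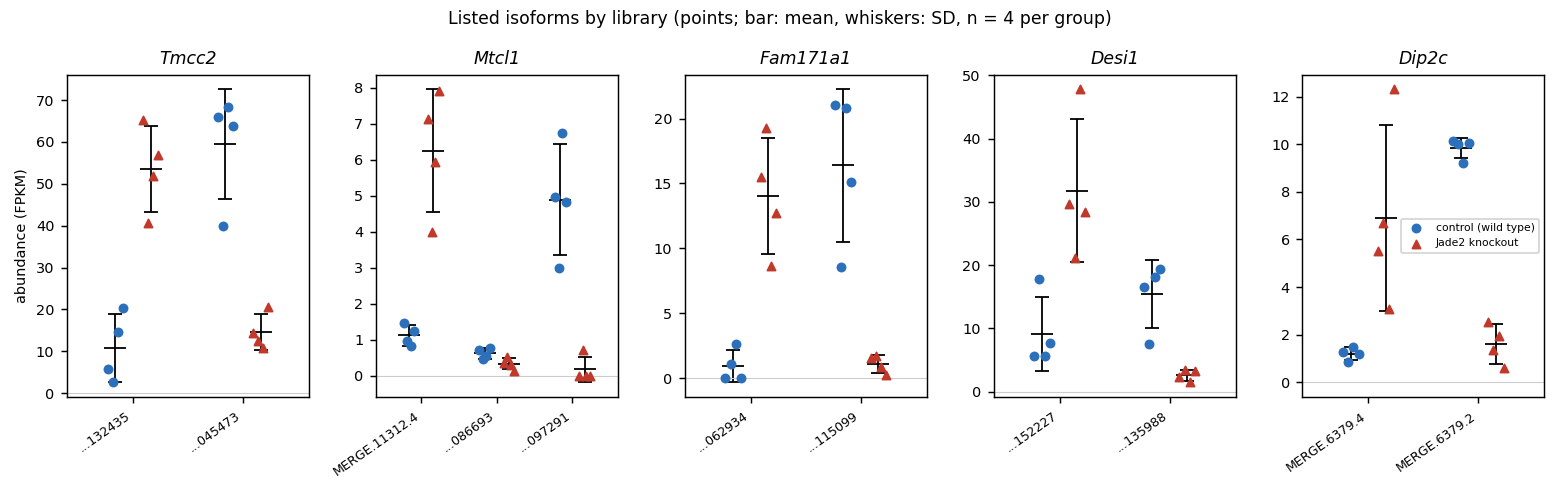
Abundance in FPKM of the 11 listed isoforms in each control (circles) and knockout (triangles) library, with mean and SD; Ensembl identifiers are cut to their last 6 digits. In each gene 1 isoform is high in the knockouts and another in the controls, and the groups overlap for Mtcl1 ENSMUST00000086693 alone.

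Side by side, the isoform that was higher in the knockout held the largest share of the listed sum in all 4 knockout libraries of all 5 genes. In the controls it held under 50% in all 4 libraries of Tmcc2, Mtcl1, Fam171a1 and Dip2c, and in 3 of 4 for Desi1. Nothing is read from these counts, which were fixed in large part by how the genes were chosen and were not made for other loci. The spread of the share differed among genes and between groups. It was widest for Desi1 in the controls, at an SD of 22.4 percentage points, and for Dip2c in the knockouts, at 15.3. By listed sum in the control the order was Tmcc2, Desi1, Fam171a1, Dip2c and Mtcl1, with overlapping control ranges for Desi1 and Fam171a1 and for Fam171a1 and Dip2c. Averaged over the 5 genes, the share of the isoform higher in the knockout was 82.9% to 90.9% in the knockout libraries and 13.0% to 23.6% in the controls. The highest control value belonged to replicate 2, which also had the lowest listed sum of the controls at Tmcc2, Mtcl1 and Fam171a1. Its share was the highest of the controls at Mtcl1, Fam171a1 and Desi1, where it was 70.3%. At Tmcc2 and Dip2c its share was the lowest of the controls, at 6.08% and 7.87%. Without control replicate 2 the difference in share was 62.1 percentage points for Tmcc2 and 88.99 for Fam171a1.

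**Figure D3:**
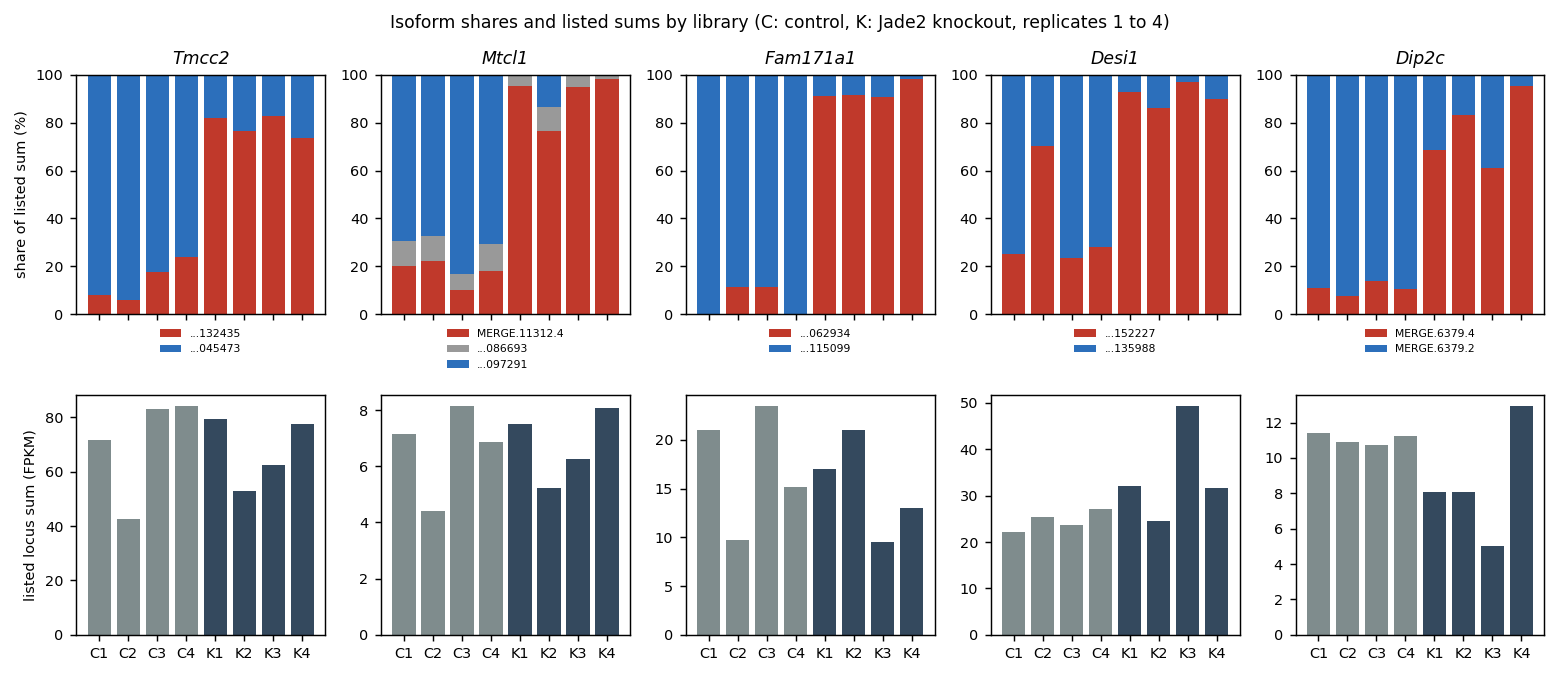
Upper row, share in percent of each listed isoform in the listed sum of its gene, for control libraries C1 to C4 and knockout libraries K1 to K4; lower row, the listed sum in FPKM. The red isoform holds over 50% in every knockout and under 50% in every control, apart from Desi1 in control replicate 2 at 70.3%, while the sums overlap between the groups.

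These sums cover listed isoforms only. GENCODE M21 has 6 transcripts for Tmcc2, 10 for Mtcl1, 4 for Fam171a1, 6 for Desi1 and 4 for Dip2c. Of these the table lists 2 each for the first 4 genes and none for Dip2c. Desi1 has 1 annotated protein-coding transcript, which is the listed one, and 4 nonsense-mediated decay transcripts, of which 1 is listed. The totals of the whole genes were therefore not analysed here.

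The 5 genes were then set among loci of the same kind. Of 1404 loci, 138 had listed transcripts in both directions, and 84 of these had a mean listed sum of at least 1 FPKM in both groups and a ratio of sums within 1.5-fold. At these 84 the summed share of the isoforms higher in the knockout differed by a median of 55.0 percentage points, with quartiles of 45.2 and 63.5 and a range of 29.4 to 99.996. Large differences are built into this set, since each transcript was listed for the size of its fold change. Fam171a1 ranked 4th, Mtcl1 9th, Dip2c 16th, Tmcc2 19th and Desi1 45th of the 84 by this difference. The shares did not overlap between the groups at any of the 5, against 54.8% of the 84 loci, and nothing is read from this because the same contrast chose them. By listed sum Tmcc2 ranked 2nd of the 84, Desi1 5th, Fam171a1 8th, Dip2c 15th and Mtcl1 27th.

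**Figure D4:**
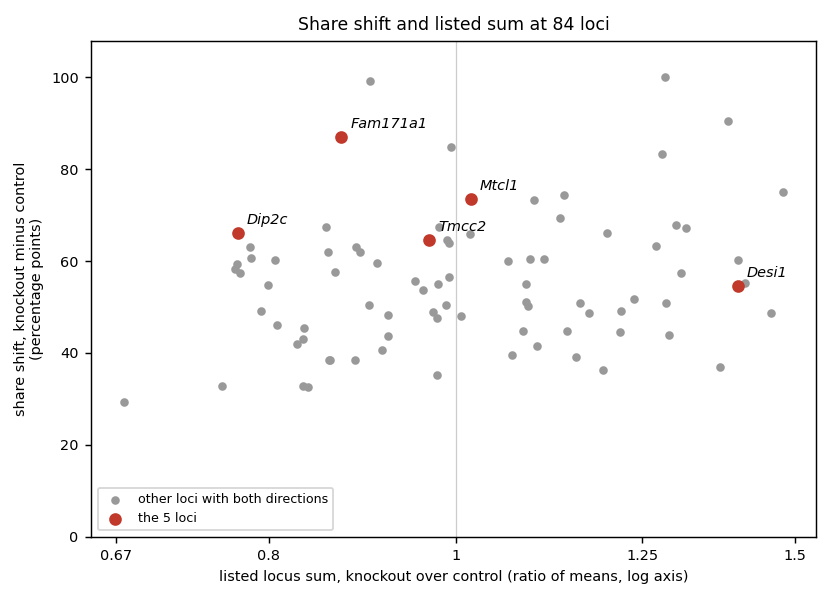
Each point is 1 of 84 loci with listed isoforms in both directions; the x axis is the ratio of listed sums, knockout over control, on a log scale, and the y axis the difference in share in percentage points. Fam171a1 at 87.1 lies near the top, Desi1 at 54.6 lies near the median of 55.0, and the other 3 lie between 64.7 and 73.5.

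Among the 84 loci, those outside the 5 genes with the largest difference in share over the 8 libraries were Jade2, Zfhx4, Fermt3, Nlrx1 and Zdhhc6. The targeted gene Jade2 was first, at 99.996 percentage points with a ratio of sums of 1.28. The zinc finger homeobox gene Zfhx4 followed at 99.3, and Fermt3, the kindlin of blood cells, at 90.4. Nlrx1, a mitochondrial NLR protein named here by position, was at 84.9, and Zdhhc6, a palmitoyltransferase, at 83.3. Mean control sums of Zfhx4, Fermt3, Nlrx1 and Zdhhc6 were 2.001, 1.56, 2.15 and 4.58 FPKM, below that of each of the 5 genes. The mean control sum of Jade2 was 11.03 FPKM.

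Related genes were looked up in 3 lists. Of 11 paralog symbols looked up for the 5 genes 2 were listed, 1 higher and 1 lower, and both had overlapping groups. The Soga3 model MERGE.2106.4, of a relative of Mtcl1, was 3.26 to 10.9 FPKM in the knockouts and 0.936 to 4.35 FPKM in the controls. The Fam171a2 model MERGE.4769.3 was 3.20 to 6.76 FPKM in the knockouts and 5.34 to 28.6 FPKM in the controls. Neither had a second listed transcript in the other direction. Of 20 genes of microtubule organisation 4 were listed, in 2 transcripts higher and 2 lower. The higher ones were the Ank3 model MERGE.2494.12, of the axon initial segment organiser ankyrin G, at 6.71 to 10.8 FPKM in the knockouts and 0.464 to 6.70 FPKM in the controls, and Map4 ENSMUST00000163979. The lower ones were Map2 ENSMUST00000145419 and the Clasp1 model MERGE.1021.30.

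Of 18 genes in a list for SUMO attachment and removal, the process in which Desi1 acts, 2 were listed. The list also names the transcription factor Zbtb46, which was not among them. The SUMO protease Senp7 had 1 model higher and 1 lower. Senp7 MERGE.10115.3 was 0.344 to 2.08 FPKM in the knockouts and 0 to 0.931 FPKM in the controls, and MERGE.10115.2 was 0 to 0.0973 FPKM and 0.174 to 0.982 FPKM. Sumo2 ENSMUST00000121185 was listed at 0 in all 4 knockouts and in 1 control, with the other controls at 0.163 to 3.17 FPKM. Groups did not overlap for 1 of these 3 transcripts, for 2 of the 4 microtubule transcripts and for neither paralog, beside the 36.1% of all listed transcripts.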

How the data were processed

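Hippocampal RNA was isolated using Trizol and sequenced from NEBNext Ultra libraries, per the labels' protocols. The submitters' processing notes name HISAT2, Cuffdiff and mm10 and no versions. The deposited abundances carry no unit and were taken as FPKM because Cuffdiff is named. The log2 values and p-values of the comparison are those the authors deposited, from a test not given in the sources used here.

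Shares are an isoform's FPKM divided by the sum over the listed transcripts of its locus in the same library. Scaling a whole library leaves a share as it is. Log2 differences used a pseudocount of 0.5 and understate the change of low transcripts. Unnamed merged models took the symbol of their locus, or of a GENCODE M21 gene of that strand where the reciprocal overlap was 50% or more. Exons came from GENCODE M21 and upstream windows from RefSeq (GRCm38.p6). The share calculation was run on 200 simulated loci with known differences, which checks its arithmetic alone and says nothing about these data. Python 3.11.15, numpy 2.4.6, pandas 2.3.3 and matplotlib 3.10.9 were used.

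The members and lists were chosen with earlier results of these data known. Described are all listed transcripts of the 5 loci, the 5 loci outside them with the largest difference in share among the 84 with comparable sums, and listed transcripts of the related genes. Alternatives left out each library, added a pseudocount, set minimum abundances, used group means and changed the scaling. Multiplying by length, done for Tmcc2, Fam171a1 and Desi1 only, was added after seeing the data. No test between the groups was run.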

Additional observations from a re-analysis of the deposited data

Results flagged for a closer look

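In 42 groups of 4 values for the abundances, listed sums and shares, 1 library was far from the other 3 in 7 groups, by a gap that takes up most of the group's range. Chance flags about 1 in 20 groups, which is about 2.1 here, and the groups are not independent because sums and shares derive from the abundances. Control replicate 2 was the far library in 3 of them: Tmcc2 ENSMUST00000045473 at 40.01 FPKM, Desi1 ENSMUST00000152227 at 17.9 FPKM, and the share of that Desi1 isoform at 70.3%. Knockout replicate 2 was far for Mtcl1 ENSMUST00000097291, at 0.717 FPKM, and for the share of Mtcl1 MERGE.11312.4, at 76.4%. Knockout replicate 4 was far for the share of Fam171a1 ENSMUST00000062934, at 97.998%. Control replicate 3 was far for Dip2c MERGE.6379.2, at 9.22 FPKM, in a group whose SD was 0.423 FPKM.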

How the results depend on the processing

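Over all alternatives run, the difference in share was positive for each of the 5 genes. Its sign was set by choosing the isoform on this same contrast, so it says nothing about stability. Of the 54 values that an alternative altered, 52 lay within 1 replicate SD of the reported one. Another 14 were identical to it, as when members were chosen by locus identifier alone or libraries by a minimum sum, and say nothing about stability. Most of the altered values came from leaving out 1 library. Removing 1 of 4 values cannot move the difference by 1 replicate SD, so for these the count says nothing about stability either. Adding 0.5 FPKM to every isoform lowered the difference in share to 60.1 percentage points for Mtcl1 and 81.6 for Fam171a1. With each library left out in turn it was 62.1 to 68.1 for Tmcc2, 70.9 to 78.4 for Mtcl1, 85.1 to 88.99 for Fam171a1, 50.1 to 65.7 for Desi1 and 60.1 to 71.5 for Dip2c. The ratio of listed sums was then 0.856 to 1.04, 0.917 to 1.10, 0.759 to 0.989, 1.20 to 1.53 and 0.638 to 0.875 in the same order, and it reached 1.77 for Desi1 with abundance multiplied by length. The number of comparison loci fell from 84 to 36 with a minimum sum of 5 FPKM. For log2 differences, pseudocounts of 0.1 and 1 gave -4.81 and -2.32 for Mtcl1 ENSMUST00000097291, and 0.1 gave -0.80 for Mtcl1 ENSMUST00000086693 (reported -0.44) and 4.92 for Fam171a1 ENSMUST00000062934. No paired analysis was possible because the labels tie no knockout to a control of the same number. No model was fitted because the members were chosen on this contrast. Depth is unknown, so counting error could not be given.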
